A study of Mus musculus with 6 samples.

Results

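The Id genes and regulators that respond to bone morphogenetic protein (BMP) signalling were followed in mouse ADSCs, an abbreviation used for adipose-derived stromal or stem cells, of wild-type (WT) genotype. The scrambled group (3 libraries) had the treatment label Scrambled, and the knockdown group (3 libraries) had the treatment label IFIT1 knockdown, which the series describes as sh-Ifit1, a short hairpin RNA against Ifit1. Each of 3 labelled batches holds 1 library of each group. Neither the age, sex and strain of the mice nor the hairpin sequences are stated in the labels. Nor do they say whether libraries came from separate cultures, so a p-value here reflects the spread among these libraries alone, and that spread may be technical. The members are 10 named genes of the 19877 in the deposited table: Id1, Id2, Id3, Id4, Smad6, Smad7, Bambi, Bmpr1a, Bmp4 and Dlx2. They were chosen on measured values of this same knockdown comparison, so their differences are given as a description, without a test. Values are FPKM, fragments scaled to gene length and library size, a scale on which genes of different length can be compared.

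BMPs are secreted ligands of the TGF-beta superfamily. They bind paired type I and type II serine/threonine kinase receptors, which phosphorylate SMAD1, SMAD5 and SMAD9, and these enter the nucleus with SMAD4. The Id genes are classical direct targets of that complex. Id proteins have a helix-loop-helix domain but no DNA-binding region, and they hold basic helix-loop-helix (bHLH) factors such as the E proteins off the DNA. SMAD6 and SMAD7 are inhibitory SMADs that feed back on the receptors, and in stromal cells BMP signals are known to steer bone, cartilage and fat differentiation.

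Promoter sequence was available in RefSeq (build GRCm38.p6) for 7 of the 10 members, and those of 5 members that were higher in knockdown are shown because they let the reader see which letters they share. Each window runs 5′ to 3′ on the strand of the gene, from 250 bases before the annotated start to 20 bases after it. Capitals mark matches on either strand to 3 motifs that SMAD proteins are known to bind: the GC-rich motif GGCGCC, the SMAD-binding element CAGAC, which reads GTCTG on the other strand, and the palindrome GTCTAGAC, none of which overlapped another here. The windows are Id2 (chr12:25096073-25096342, minus strand), Id3 (chr4:136143572-136143841, plus strand), Id4 (chr13:48260866-48261135, plus strand), Smad6 (chr9:64022040-64022309, minus strand) and Dlx2 (chr2:71546735-71547004, minus strand).
Id2: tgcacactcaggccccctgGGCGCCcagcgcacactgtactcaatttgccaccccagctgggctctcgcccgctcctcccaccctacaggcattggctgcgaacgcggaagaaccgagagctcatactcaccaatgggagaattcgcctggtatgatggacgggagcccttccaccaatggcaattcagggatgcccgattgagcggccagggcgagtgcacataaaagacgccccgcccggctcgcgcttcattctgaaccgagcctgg
Id3: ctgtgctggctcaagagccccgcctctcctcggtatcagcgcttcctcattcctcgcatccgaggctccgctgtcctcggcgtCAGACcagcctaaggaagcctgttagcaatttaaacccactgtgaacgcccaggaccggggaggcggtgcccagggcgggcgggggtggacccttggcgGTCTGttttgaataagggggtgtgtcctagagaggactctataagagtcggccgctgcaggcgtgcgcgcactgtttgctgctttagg
Id4: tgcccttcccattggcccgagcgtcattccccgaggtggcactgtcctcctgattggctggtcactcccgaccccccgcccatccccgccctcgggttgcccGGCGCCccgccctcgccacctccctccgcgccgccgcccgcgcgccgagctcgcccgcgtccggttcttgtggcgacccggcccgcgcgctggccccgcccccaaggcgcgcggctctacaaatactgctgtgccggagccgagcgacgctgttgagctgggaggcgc
Smad6: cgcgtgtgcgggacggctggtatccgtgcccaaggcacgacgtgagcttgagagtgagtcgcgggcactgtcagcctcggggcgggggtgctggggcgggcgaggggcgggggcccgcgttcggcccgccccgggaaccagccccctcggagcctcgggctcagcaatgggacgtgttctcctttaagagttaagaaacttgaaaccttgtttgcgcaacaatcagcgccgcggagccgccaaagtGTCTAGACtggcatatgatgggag
Dlx2: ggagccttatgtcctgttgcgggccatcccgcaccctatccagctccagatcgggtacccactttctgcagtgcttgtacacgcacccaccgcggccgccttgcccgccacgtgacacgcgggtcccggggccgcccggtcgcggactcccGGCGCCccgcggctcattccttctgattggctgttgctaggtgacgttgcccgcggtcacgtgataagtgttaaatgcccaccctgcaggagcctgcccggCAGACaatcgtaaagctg

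GGCGCC began 231 bases before the start of Id2, 148 before that of Id4 and 99 before that of Dlx2. It was also found 198 bases before the start of Bmpr1a, the member that was lower in knockdown, so 4 of the 7 windows held it. Of 32851 RefSeq promoter windows of the same length, 10.4% held GGCGCC. Id3 held CAGAC 167 bases before its start and GTCTG 68 bases before its start, and Dlx2 held CAGAC just after its start. CAGAC is common, in 45.4% of windows. Smad6 held GTCTAGAC across its start, from 4 bases before it, a palindrome present in 60 windows (0.183%). A match is a description of letters and was not tested as a binding site. The starts are those of RefSeq. The windows of Id2, Id3 and Bmpr1a lie inside the GENCODE spans of these genes, which begin further upstream.

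The targeted gene and the cell markers were looked at first. Ifit1 lay between 3.75 and 4.97 FPKM in scrambled and between 1.48 and 1.76 FPKM in knockdown libraries. Recovered fragments summed to between 32213063 and 40569646 per library. Of 10 stromal markers, 9 passed the filter on low values (1 FPKM or more in 3 or more libraries), and their list summed to between 1666 and 1841 FPKM in scrambled and between 1134 and 1253 FPKM in knockdown libraries. Without Col1a1, which had between 1155 and 1333 FPKM in scrambled and between 596 and 751 FPKM in knockdown, the sums were between 508 and 512 FPKM and between 503 and 538 FPKM. Of the 9, 7 fell and 2, Cd44 and Itgb1, rose (limma, Benjamini-Hochberg), beside 31.1% and 19.8% of all tested genes. Endothelium, where Id1 and Smad6 are known to be abundant, left almost no trace: 0 of 8 endothelial markers passed the filter and the list summed to at most 0.104 FPKM in any library, with Emcn at 0 in 5 and Vwf at 0 in 4 of 6 libraries. Of 8 macrophage and leukocyte markers 2 passed (Cd68 and Cd14), with sums between 4.54 and 5.56 FPKM in scrambled and between 5.88 and 5.93 FPKM in knockdown. Cd14 rose (0.35, limma adjusted p = 0.00927), while Cd68 overlapped between the groups (−0.03, limma adjusted p = 0.823). Of 6 epithelial markers 0 passed, with at most 0.368 FPKM in sum. Of 6 adipocyte markers Pparg passed (3.68 to 4.37 FPKM in scrambled, 3.13 to 3.92 FPKM in knockdown). Of 6 Schwann and neural markers Tubb3 passed, and it fell from between 25.8 and 27.0 FPKM to between 17.6 and 20.7 FPKM (−0.46, limma adjusted p = 0.000265). Of 8 skeletal muscle markers 0 passed, with sums between 0.626 and 0.922 FPKM in scrambled and between 0.557 and 1.45 FPKM in knockdown. The part of these markers in the members' differences was not tested. Knockdown libraries listed between 3476 and 3868 genes at 0 and scrambled libraries between 3013 and 3188, a difference whose part in the values of low genes was not tested.

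All 4 Id genes were higher in the knockdown libraries, with no overlap between the groups, and Id1 differed by the largest factor of the 4. A change in the share of a cell type and a change in RNA per cell cannot be told apart in such bulk samples. Id1 (chr2:152736251-152737410 on GRCm38, plus strand) had 16.3, 16.3 and 15.2 FPKM in scrambled replicates 1, 2 and 3, against 47.1, 37.8 and 40.0 FPKM in knockdown replicates 1, 2 and 3. The scrambled libraries lay close together, and knockdown library 1 was the highest. The mean was 2.61 times higher in knockdown (15.9 ± 0.600 against 41.6 ± 4.86 FPKM, SD, n = 3 each), a log2 fold change of 1.35 ± 0.07 (standard error). Here and below log2 fold changes are on the log2(FPKM + 0.5) scale, which understates the change of low genes. In batches 1, 2 and 3 taken singly, knockdown exceeded scrambled on the log2 scale by 1.504, 1.19 and 1.36.

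Id2 (chr12:25093799-25097140, minus strand), an Id protein long studied in fat and immune cell development, had 34.8, 35.6 and 37.0 FPKM in scrambled libraries 1, 2 and 3. It had 68.5, 67.9 and 87.5 FPKM in knockdown libraries 1, 2 and 3. Here knockdown library 3 stood above the other two, whereas for Id1 it was library 1. The means were 35.8 ± 1.11 and 74.6 ± 11.1 FPKM (2.09 times, log2 fold change 1.04 ± 0.09), and within batches the difference was 0.97, 0.92 and 1.23.

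Id3 (chr4:136143497-136145755, plus strand) was the most abundant member in every library. Its scrambled values were 115, 120 and 127 FPKM and its knockdown values 203, 195 and 199 FPKM in libraries 1, 2 and 3. The knockdown libraries varied by 1.95% of their mean (coefficient of variation), less than the 11.7% of Id1 and the 14.9% of Id2. Its mean was 1.65 times higher (log2 fold change 0.72 ± 0.04, within batches 0.82, 0.70 and 0.64).

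Id4 (chr13:48261228-48266026, plus strand) was scarce and stayed below the filter. It had 0.438, 0.263 and 0.425 FPKM in the scrambled group against 0.8004, 0.939 and 0.883 FPKM in the knockdown group, from 39 to 142 fragments a library. The lowest knockdown value was above the highest scrambled one, and the mean was 2.33 times higher (0.375 ± 0.0974 against 0.874 ± 0.0698 FPKM). The antisense gene A330033J07Rik and the lincRNA Gm49291 overlap Id4 on the opposite strand, and since the strand setting of the counting is not given here, reads of the 3 genes cannot be told apart.

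**Figure D1:**
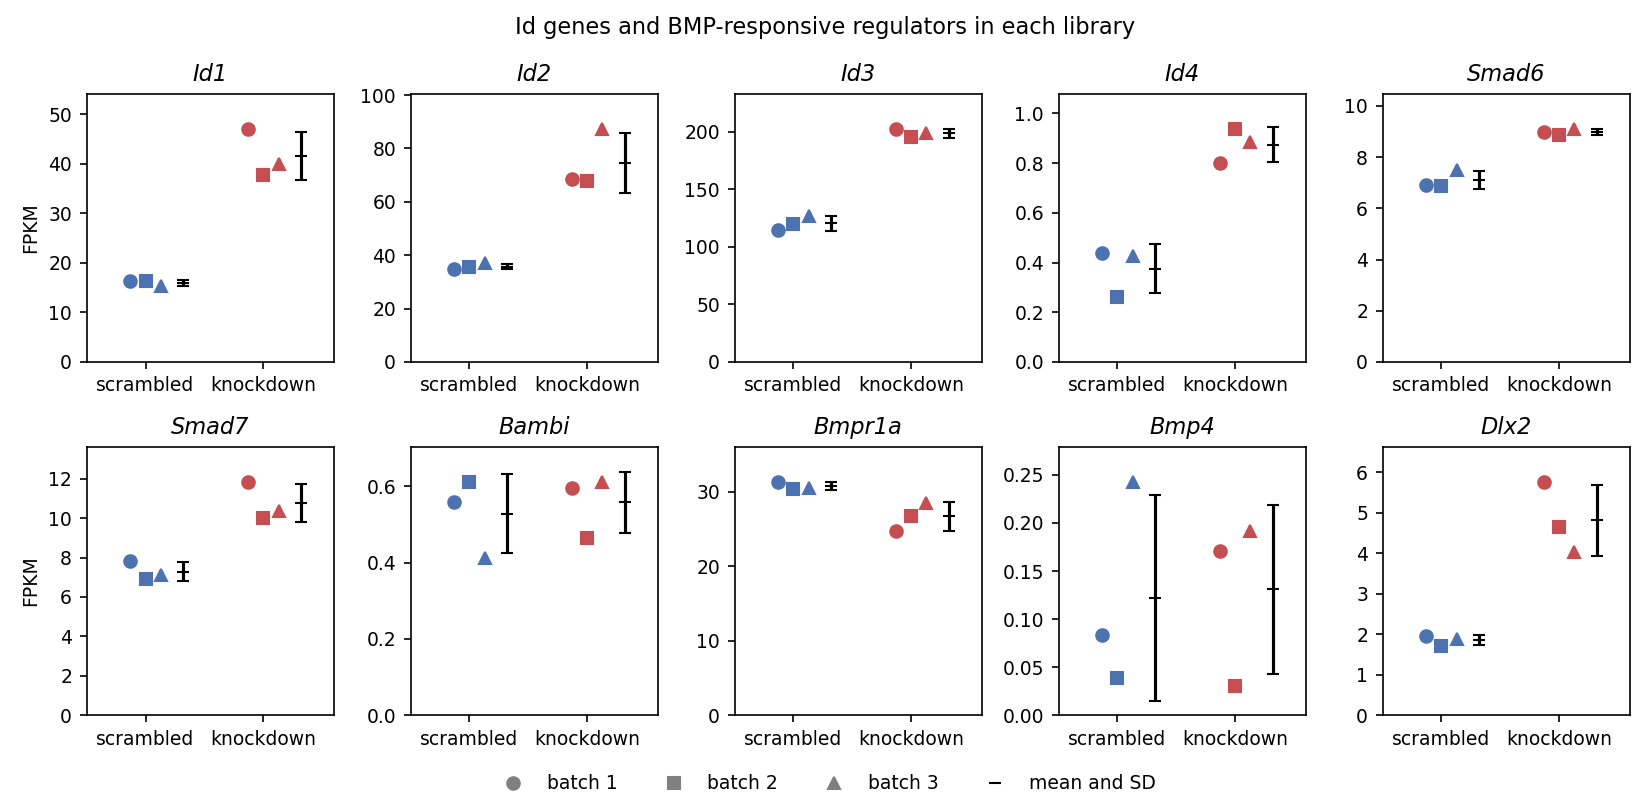
FPKM (y axis, from 0, a separate scale in each panel) of the 10 members in 3 scrambled and 3 knockdown libraries. Marker shape gives the batch, the dash and bar give the mean and SD. All 4 Id genes, Smad6, Smad7 and Dlx2 sit higher in each knockdown library, Bmpr1a sits lower, and the groups overlap for Bambi and Bmp4.

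Summed over the family, Id transcripts went from 173 ± 6.86 FPKM in scrambled to 316 ± 13.0 FPKM in knockdown libraries. The make-up of the pool differed as well. Id3 made up between 69.0% and 70.7% of it in scrambled and between 60.8% and 64.7% in knockdown libraries, while Id1 made up between 8.48% and 9.80% and then between 12.2% and 14.8%. Id2 had shares between 20.5% and 20.9% in scrambled and between 21.4% and 26.7% in knockdown libraries, and Id4 had at most 0.311% in any library. Counted against the E proteins that Id proteins bind (Tcf3, Tcf4 and Tcf12 together), Id transcripts stood at 1.93 ± 0.0567 times their sum in scrambled and 3.74 ± 0.147 times in knockdown libraries. These are ratios of RNA and say nothing of protein amounts.

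**Figure D2:**
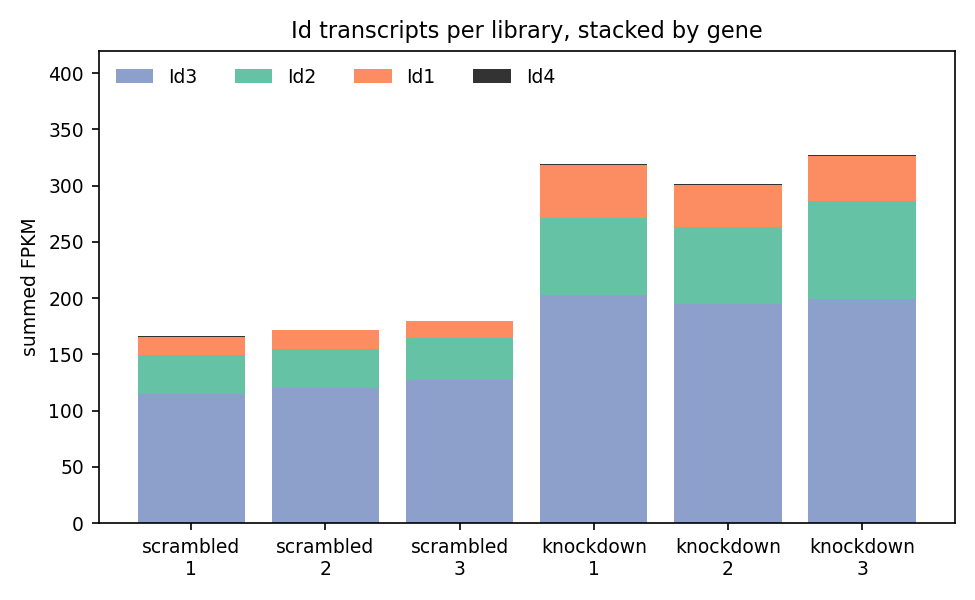
Summed FPKM of the 4 Id genes in each library, stacked by gene. The stack reaches between 166 and 180 FPKM in scrambled and between 302 and 327 FPKM in knockdown libraries, Id3 is the largest layer in all 6, and the layer of Id4 is barely visible.

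Both inhibitory Smads were higher in knockdown, by less than the Id genes. Smad6, the inhibitor that acts mainly on BMP receptors, had 6.93, 6.89 and 7.51 FPKM in the scrambled group against 8.97, 8.88 and 9.12 FPKM in the knockdown group 1, 2 and 3. Its knockdown values varied by 1.35% of their mean, the smallest spread of any member in either group. The mean was 1.26 times higher (log2 fold change 0.32 ± 0.05, within batches 0.35, 0.34 and 0.26). Smad7, which dampens both BMP and TGF-beta receptors, had 7.81, 6.89 and 7.13 FPKM in the scrambled group against 11.8, 10.03 and 10.4 FPKM in the knockdown group. The groups did not overlap, and library 1 was the highest in each. The mean was 1.48 times higher (0.53 ± 0.07, within batches 0.57, 0.51 and 0.51).

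Dlx2, a homeobox transcription factor of limb, tooth and forebrain development, differed nearly as much as Id1. It had 1.96, 1.71 and 1.89 FPKM in the scrambled group against 5.76, 4.65 and 4.03 FPKM in the knockdown group 1, 2 and 3, from 158 to 525 fragments a library. Every knockdown library was above every scrambled one, but the knockdown libraries varied by 18.2% of their mean, with library 1 highest and library 3 lowest. The mean was 2.60 times higher (1.85 ± 0.128 against 4.81 ± 0.877 FPKM, log2 fold change 1.16 ± 0.11, within batches 1.35, 1.22 and 0.93). Its neighbour and paralog Dlx1 was on the list of other BMP-responsive genes and rose from 3.12 ± 0.106 to 4.64 ± 0.492 FPKM (0.50 ± 0.08, limma adjusted p = 0.000797). The ratio of Dlx2 to Dlx1 lay between 0.528 and 0.636 in scrambled and between 0.909 and 1.11 in knockdown libraries.

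The ligand, the receptor and the pseudoreceptor among the members did not share this direction. Bmpr1a, the type I receptor also called ALK3, had 31.3, 30.3 and 30.5 FPKM in the scrambled group against 24.7, 26.8 and 28.5 FPKM in the knockdown group. Each knockdown library was below each scrambled one, by a small and uneven amount (log2 fold change −0.20 ± 0.05, within batches −0.34, −0.18 and −0.10). Bmp4, the ligand, was almost absent, with 0.0831, 0.0389 and 0.243 FPKM in the scrambled group against 0.171, 0.0299 and 0.192 FPKM in the knockdown group. These values rest on 2 to 19 fragments, the groups overlapped, and a difference was not tested. Bambi, a receptor-like protein without a kinase domain that blocks TGF-beta family signals, had 0.559, 0.612 and 0.412 FPKM in the scrambled group against 0.596, 0.466 and 0.612 FPKM in the knockdown group. Its groups overlapped, and the within-batch differences had both signs (0.05, −0.20 and 0.29). On the opposite strand Gm17110 overlaps Bmpr1a, and Gm15217 and Gm15222 overlap Bmp4.

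**Figure D3:**
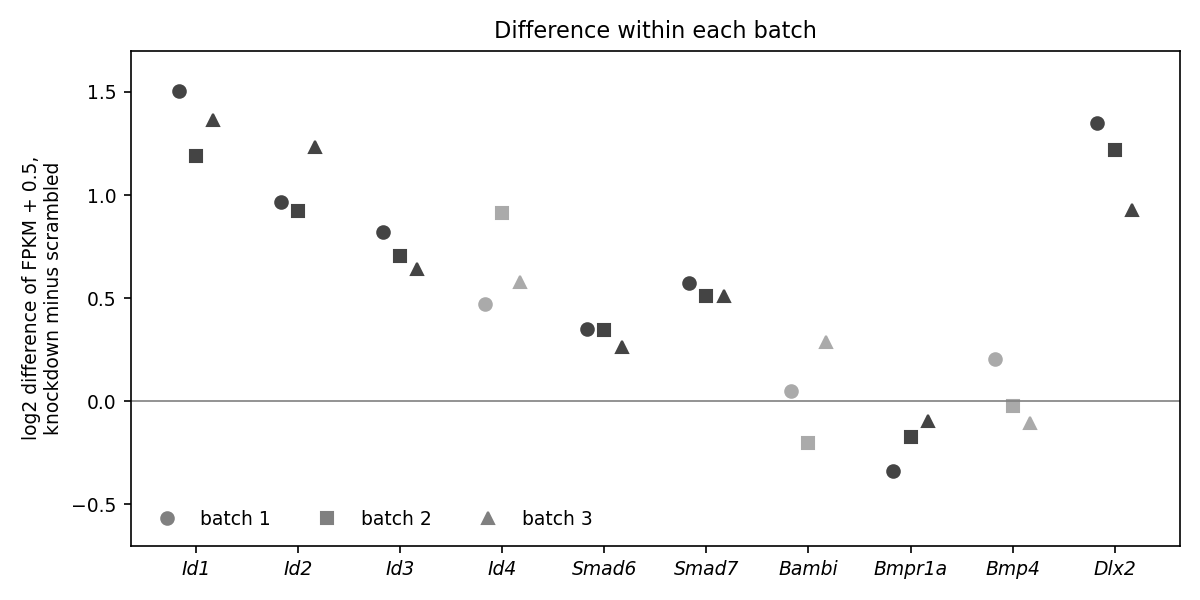
Log2 difference of FPKM + 0.5, knockdown minus scrambled, within each batch (marker shape) for each member. Dark markers are members that passed the filter, grey ones did not. The points of Id1, Id2, Id3, Id4, Smad6, Smad7 and Dlx2 are above 0 in all 3 batches, those of Bmpr1a below 0 in all 3, and those of Bambi and Bmp4 lie on both sides.

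Ordered by level in scrambled libraries, the members ran Id3, Id2, Bmpr1a, Id1, Smad7, Smad6, Dlx2, Bambi, Id4 and Bmp4. The neighbours Smad7 and Smad6 (7.27 ± 0.476 and 7.11 ± 0.347 FPKM) overlapped, as did Bambi and Id4 (0.528 ± 0.103 and 0.375 ± 0.0974 FPKM). In knockdown libraries Id1 stood above Bmpr1a (41.6 ± 4.86 and 26.7 ± 1.92 FPKM), Smad7 stood above Smad6 in each library, and Id4 stood above Bambi in each.

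Of the 10 members, 7 passed the filter and 3 (Id4, Bambi and Bmp4) did not. Of the 7, 6 had a higher mean in knockdown and 1 a lower mean, given without a test. Across all 10311 tested genes 19.8% were called higher and 31.1% lower (limma, adjusted p under 0.05). Over all 10 members the groups did not overlap for 8, 7 of them with knockdown above and 1 with knockdown below. Among tested genes 23.8% had all knockdown libraries above all scrambled ones and 37.3% below. Since the members were picked with these values known, nothing is read from the comparison. The background depends on scaling: with 2046 genes higher and 3209 lower as deposited, the split was 1540 and 4035 after rescaling to TPM, 3001 and 2293 after median centring and 2486 and 2256 after quantile normalization. The median log2 fold change of the 7 tested members was 0.72 and that of all tested genes −0.05. Only 4 tested genes, Id1 included, had a log2 fold change as high as that of Id1, and 16 reached 1, among them Id1, Id2 and Dlx2.

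**Figure D4:**
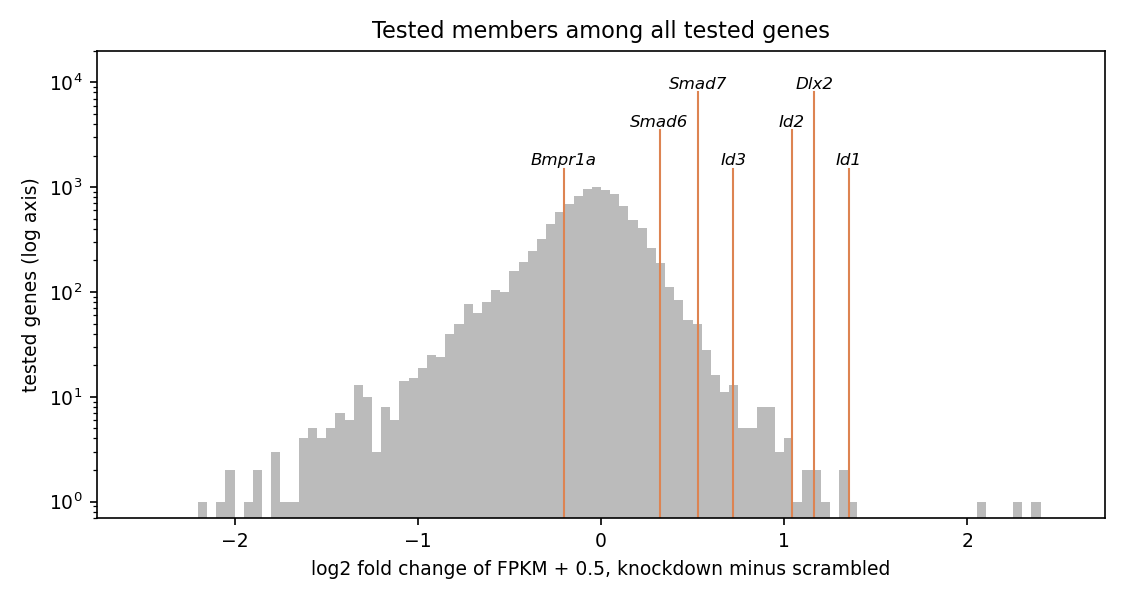
Log2 fold change (x axis) of the 10311 tested genes in bins of 0.05, with their number on a log axis, and vertical lines at the 7 tested members. Bmpr1a at −0.20 lies in the bulk, Smad6 at 0.32 on its flank, and Id1 at 1.35 near the right end.

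The genes whose levels over the 6 libraries followed Id1 most closely were Pinx1 (Pearson r = 1.00), Wdr46, Aprt, Tomm5 and Mlf2 (each r = 0.999). Their log2 fold changes were smaller than that of Id1, at 0.43, 0.55, 0.27, 0.49 and 0.14 (that of Mlf2 was 0.08 under quantile normalization). These correlations are descriptive: they mostly follow the contrast between the 2 groups, and 907 tested genes had r above 0.95 with Id1. Among the members, r with Id1 was 0.95 for Id2, 0.98 for Id3, 0.95 for Smad6, 0.98 for Smad7, 0.98 for Dlx2 and −0.90 for Bmpr1a.

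The rest of the pathway was read from fixed lists, starting with ligands and receptors. The counts of each list were not tested against the shares of all tested genes, and nothing is read from them. Of 14 other BMP and GDF ligands 10 were in the table and 0 passed the filter, the highest value being 0.389 FPKM. Of 10 further receptors and co-receptors 7 were tested, 0 rose and 4 fell (median log2 fold change −0.17). Of all tested genes 19.8% rose and 31.1% fell (median −0.05). Acvrl1 (ALK1), the type I receptor best known from endothelium, fell from 1.57, 1.14 and 1.55 FPKM to 0.508, 0.284 and 0.436 FPKM (log2 fold change −1.08 ± 0.14). Acvrl1 is counted among the 4, but it passed the filter only through the scrambled libraries, where it was high. Its difference is therefore given as a description, without a p-value. Its log2 fold change was −0.70 under quantile normalization and −1.79 with limma-voom on recovered fragments. The co-receptor endoglin (Eng), which is also on the stromal marker list, fell from 2.06 ± 0.106 to 1.21 ± 0.0427 FPKM (−0.58 ± 0.08, limma adjusted p = 0.000380), by 0.37 under quantile normalization. Rgma, a membrane-anchored BMP co-receptor, also fell (−0.52 ± 0.09, limma adjusted p = 0.00154), as did the type II receptor Bmpr2 by a small amount (−0.17 ± 0.05, limma adjusted p = 0.0157), a call lost under median centring (0.0834), under quantile normalization (0.0977) and without scrambled library 3 (0.0579).

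Among the signal-carrying Smads, which relay the receptor signal to the nucleus, Smad9 was the 1 that rose. Smad9 (also called Smad8) had 1.68, 1.84 and 1.53 FPKM in the scrambled group against 3.73, 3.60 and 3.21 FPKM in the knockdown group. It rose by 0.88 ± 0.08 on the log2 scale (limma adjusted p = 8.28e-05). Of the 6 listed Smads, 1 rose and 3 fell (median −0.10), beside 19.8% and 31.1% of all tested genes. Smad5 fell by 0.22 (limma adjusted p = 0.00163) and Smad3, of the TGF-beta arm, fell by 0.23 (limma adjusted p = 0.00376). Smad4 fell by 0.10 (limma adjusted p = 0.0372), a call lost with the batch as a block (0.0535), under median centring (0.436), under quantile normalization (0.158) and without any 1 of the 6 libraries (0.0560 to 0.102). Smad9 made up between 5.31% and 6.65% of the BMP-activated Smad1, Smad5 and Smad9 transcripts in scrambled and between 11.8% and 13.7% in knockdown libraries, while their sum was 28.4 ± 0.685 and 27.3 ± 0.0897 FPKM.

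Of 17 listed extracellular antagonists and modulators of BMPs 13 were in the table and 9 were tested. Of the 9, 6 rose and 2 fell (median 0.30), beside 19.8% and 31.1% of all tested genes. The count that rose was 4 without scrambled library 1, without scrambled library 2 and without the filter. Follistatin (Fst), a binder of activins and some BMPs, rose from 10.5 ± 0.435 to 21.2 ± 0.716 FPKM (0.98 ± 0.04, limma adjusted p = 9.67e-06). Crim1 rose by 0.40 (limma adjusted p = 7.22e-05) and Nbl1 by 0.30 (limma adjusted p = 0.000476). The antagonist noggin (Nog), itself known to be induced by BMPs, was below the filter, with 0.343, 0.431 and 0.383 FPKM in the scrambled group against 1.23, 0.720 and 0.552 FPKM in the knockdown group, which did not overlap. The 2 that fell, named after their values were seen, were Twsg1 (−0.17) and Dand5 (−0.38, limma adjusted p = 0.0447), and the count that fell was 1 without scrambled library 1, 2 or 3 or knockdown library 2.

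Intracellular brakes on the pathway went both ways. Of 13 tested genes 3 rose, 3 fell and 7 did not pass (median −0.02), while 19.8% of all tested genes rose and 31.1% fell. The ubiquitin ligase Smurf1, which targets BMP Smads, rose by 0.27 ± 0.04 (limma adjusted p = 0.000376), and Fkbp1a (FKBP12), which guards type I receptors, rose from 214 ± 2.21 to 247 ± 6.77 FPKM (0.21 ± 0.03, limma adjusted p = 0.000442). The phosphatase Ctdsp2, which acts on SMADs, fell from 43.0 ± 1.74 to 28.9 ± 1.37 FPKM (−0.56 ± 0.04, limma adjusted p = 4.36e-05), and Tob1 fell by 0.36 (limma adjusted p = 0.00317).

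**Figure D5:**
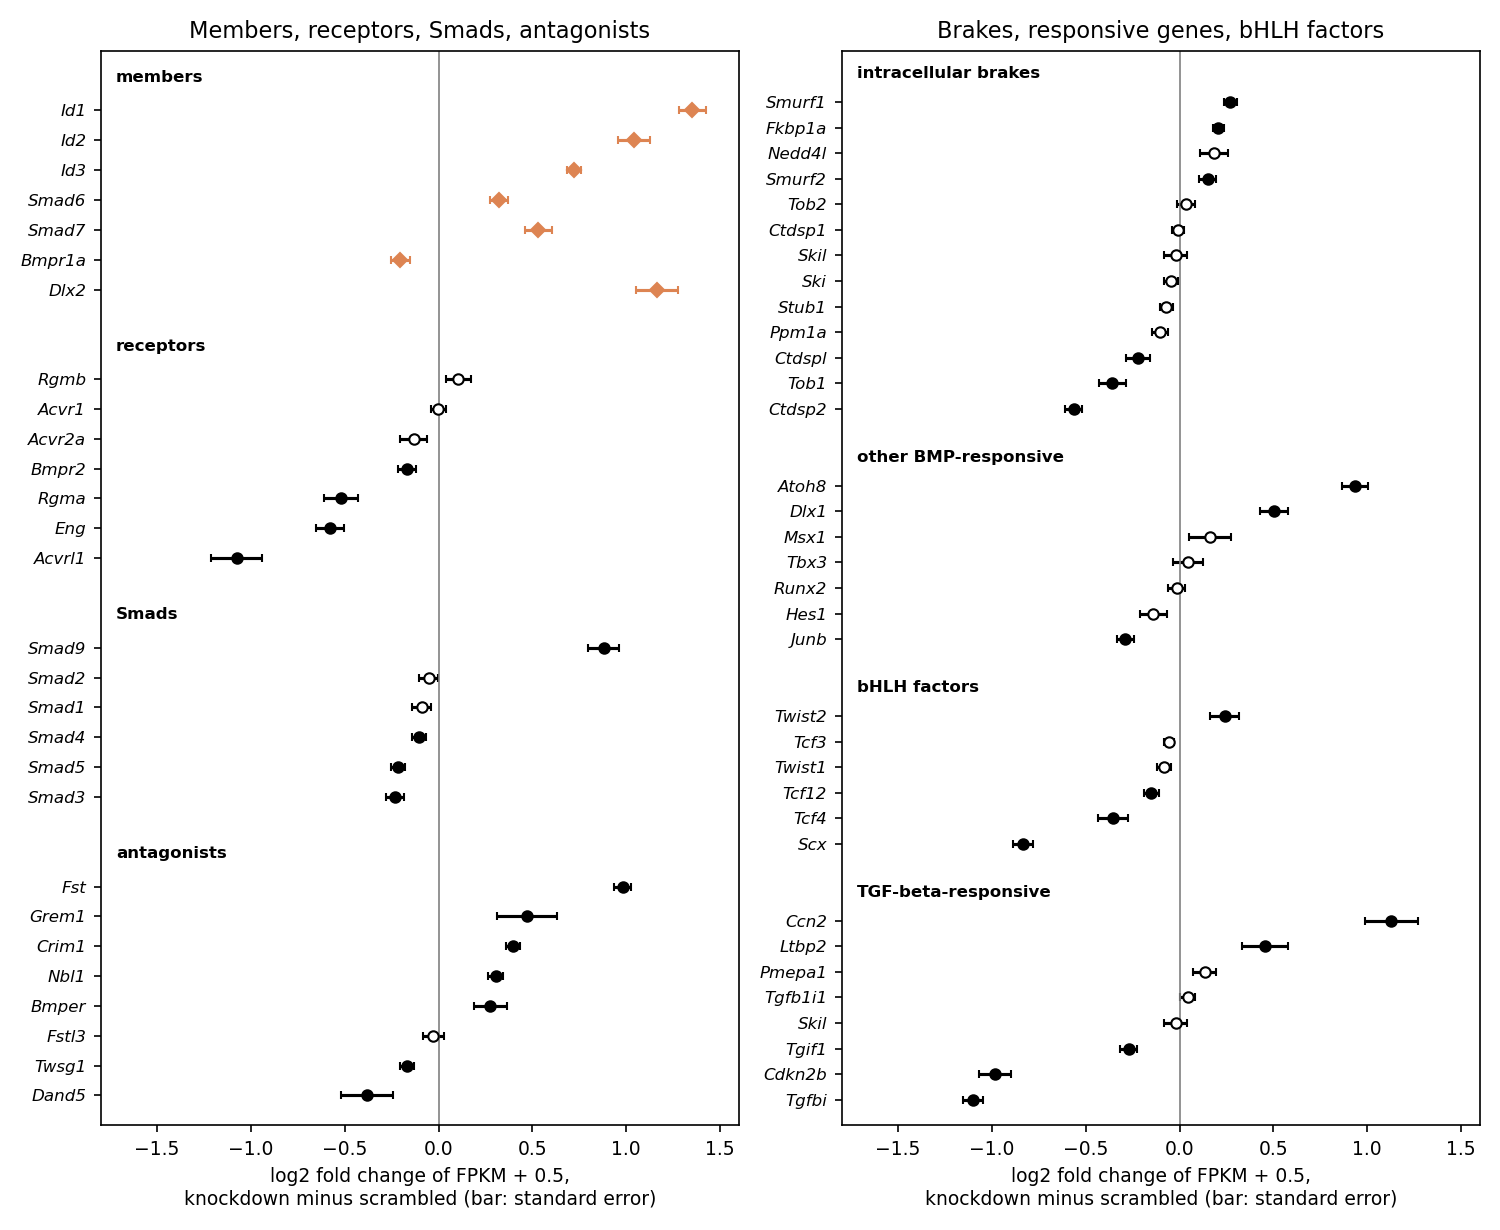
Log2 fold change with its standard error for the 7 tested members (diamonds, shown without a test) and the tested genes of the 7 lists with tested genes, apart from 2 that are not reported here (circles, filled where the limma adjusted p is under 0.05). Receptors lie at or left of 0 except Rgmb at 0.10, while Smad9 lies at 0.88, Atoh8 at 0.93 and Fst at 0.98.

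Other genes known to respond to BMPs went different ways. Of 15 listed genes 7 were tested, 2 rose, 1 fell and 4 did not pass (median 0.05). Of all tested genes 19.8% rose and 31.1% fell. Atoh8, a bHLH factor induced by BMP signals, had 4.01, 3.71 and 3.62 FPKM in the scrambled group against 7.25, 7.31 and 8.51 FPKM in the knockdown group (0.93 ± 0.07, limma adjusted p = 3.72e-05). Besides Dlx1, the AP-1 factor Junb passed, and it fell from 70.3 ± 2.23 to 57.5 ± 3.59 FPKM (−0.29 ± 0.05, limma adjusted p = 0.00112). Hes1, better known as a Notch target, stood at −0.14 ± 0.07 (limma adjusted p = 0.132) and passed without knockdown library 3 (−0.23, limma adjusted p = 0.00275). Below the filter, the alkaline phosphatase Alpl had 0.786, 0.759 and 1.03 FPKM in the scrambled group against 0.227, 0.241 and 0.593 FPKM in the knockdown group, and Gata3 overlapped between the groups.

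On the list of bHLH factors, the E proteins Tcf3, Tcf4 and Tcf12 had lower means in knockdown. Twist2 was the only tested factor of this list called higher, and Atoh8, given above, was on another list. Of 20 listed E proteins and other bHLH factors 13 were in the table and 6 were tested. Of the 6, 1 rose and 3 fell (median −0.12), beside 19.8% and 31.1% of all tested genes. Tcf3 (E2A), named after its values were seen because it makes up most of the E protein sum, stood at 70.6 ± 1.32 and 67.9 ± 0.695 FPKM (−0.06 ± 0.03, limma adjusted p = 0.123). Tcf4 fell by 0.36 (limma adjusted p = 0.00581), a call lost under quantile normalization (0.119), and Tcf12 fell by 0.15 (limma adjusted p = 0.0130), a call lost under median centring (0.102) and without scrambled library 1 (0.0544). Scleraxis (Scx), a factor of tendon cells, had 14.7, 15.3 and 16.0 FPKM in the scrambled group against 7.90, 8.86 and 8.38 FPKM in the knockdown group (−0.83 ± 0.05, limma adjusted p = 2.12e-05). Twist2 rose by 0.24 ± 0.08 (limma adjusted p = 0.0319), a call lost without scrambled library 1 (0.0610), scrambled library 2 (0.0612), scrambled library 3 (0.0944) or knockdown library 2 (0.0645). It was also lost without the filter (0.116), after rescaling to TPM (0.0650), under quantile normalization (0.0600) and without the limma trend (0.0622), and the change was 0.14 without knockdown library 3.

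TGF-beta-responsive genes, which share inhibitory Smads with the BMP arm, split. Of 9 tested genes 3 rose, 3 fell and 3 did not pass (median 0.04), while 19.8% of all tested genes rose and 31.1% fell. Ccn2, a matricellular protein, had 142, 141 and 153 FPKM in the scrambled group against 397, 329 and 245 FPKM in the knockdown group (1.13 ± 0.14, limma adjusted p = 0.000315). For Ccn2, as for Dlx2, library 1 was the highest and library 3 the lowest of the knockdown group. Tgfbi, an adhesion protein of the matrix, fell from 26.1 ± 1.71 to 11.9 ± 0.570 FPKM (−1.10 ± 0.06, limma adjusted p = 1.25e-05), and the cell cycle inhibitor Cdkn2b fell from 76.4 ± 6.72 to 38.4 ± 4.41 FPKM (−0.98 ± 0.08, limma adjusted p = 6.34e-05).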

How the data were processed

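Messenger RNA of 6 libraries was measured by sequencing. Per the labels' protocols, RNA was extracted with Trizol, enriched on capture beads and heat-fragmented. The authors deposited 1 table of FPKM values with 1 column per library. The submitters' processing notes name GRCm38, mm10 and GRCm39 without a role. Aligner, counting tool and strand setting: not given in the sources used here. The deposited FPKM are whole multiples of 1 fragment (100% of 19877 genes, within 0.002), which gave the fragments behind each value. For genes above 0 in few libraries such a fit is easily found and says little. The 15764 genes above 0 in at least 4 libraries were all whole as well. Where counts share a factor the smallest fit understates them, and the counts cover counting error only.

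The 10311 genes that reached 1 FPKM in 3 or more of the 6 libraries were tested on log2(FPKM + 0.5) with limma 3.58.1 in R 4.3.3 (trend, two-sided, Benjamini-Hochberg over all tested genes, threshold 0.05), and the step was tested on simulated data. FPKM are not counts, so limma-voom on recovered fragments is an alternative only. The members, lists and tests were chosen with earlier results of these data known. Named genes are the members and Ifit1. From each list they include up to 4 tested genes of smallest p and any that moved by 1 or more on the log2 scale. The 5 genes most correlated with Id1 are named too, leaving out members, unnamed predicted genes and pseudogenes. Listed genes below the filter are named where they reach 0.5 FPKM in a library. Because the labels give same-numbered libraries a shared batch, the number pairs them. The main fit compared the groups without this pairing, and the batch as a block was an alternative. Deviations of same-numbered libraries from the group means correlated at 0.0859, 0.0120 and 0.189 over tested genes. Differently numbered pairs ran from −0.173 (scrambled 3, knockdown 1) to 0.114 (scrambled 2, knockdown 1), so the ranges overlapped. Gene positions are from GENCODE M21 on GRCm38, matched by symbol, since the table has no coordinates. Exact permutation tests were not used, because 3 against 3 cannot go below p = 0.1. For 2 listed genes that the counts include, values are not reported here.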

Additional observations from a re-analysis of the deposited data

How the results depend on the processing

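There were 16 alternatives, 6 of which left out 1 library. The values of the members are given as ranges only, since the members were chosen on this comparison (Dlx2 was not tested under a mean FPKM of at least 5). Without 1 library the log2 fold change ran from 1.26 to 1.42 for Id1, from 0.92 to 1.10 for Id2, from 0.69 to 0.76 for Id3, from 0.30 to 0.36 for Smad6, from 0.46 to 0.58 for Smad7, from 1.04 to 1.27 for Dlx2 and from −0.25 to −0.15 for Bmpr1a. The difference of Id4, 0.66 on the log2 scale, was 1.06 with a pseudocount of 0.1, 0.45 with a pseudocount of 1 and 0.89 after rescaling to TPM. Called genes numbered 5255, 5229 with the replicate block, and from 4335 to 5284 without 1 library. With a mean FPKM of at least 5, fewer genes were tested and 2042 genes were lower instead of 3209. With that filter 1 receptor was lower, 0 Smads were higher, 1 antagonist or modulator was lower and 1 other BMP-responsive gene was higher. Acvrl1, Eng, Rgma, Smad9, Dand5 and Dlx1 had means under 5 FPKM in both groups and were not tested there. The lower antagonists and modulators also numbered 1 under quantile normalization, without the filter, without the limma trend, under median centring and with limma-voom. They numbered from 1 to 2 without 1 library. Under quantile normalization 1 receptor was higher. After rescaling to TPM 5 intracellular brakes and 5 factors of the bHLH list were lower. Without the filter 2 other BMP-responsive genes were lower, and from 1 to 2 without 1 library (2 without knockdown library 3). On the bHLH list 0 were higher without the filter, after rescaling to TPM, under quantile normalization and without the limma trend. From 0 to 1 were higher without 1 library. The cause of these moves was not tested unless stated. With the replicate block the call of Smad4 was lost, and no other call of a named gene changed. Of 34 named genes outside the members, 28 kept call and direction in each alternative that tested them, and 0 reversed. The others are given beside their results. For the 3 members below the filter the limma alternatives, quantile normalization and the stricter filter were not run, and the small differences of Bambi and Bmp4 changed sign when single libraries were left out (from −0.04 to 0.11 and from −0.07 to 0.16). Low depth limits Bmp4, Bambi and Id4.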
